A study of Mus musculus with 8 samples.

Results

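The 10 genes described here encode the laminin, nidogen and heparan sulphate proteoglycan components of the satellite cell niche: the laminin α chains Lama2, Lama4 and Lama5, the β chains Lamb1 and Lamb2, the γ chain Lamc1, the nidogens Nid1 and Nid2, perlecan (Hspg2) and agrin (Agrn). They were taken by name from the 52636 genes of the table, by a rule that uses none of their values but was written with earlier results of these data known, and all 10 were listed. Their RNA was measured in satellite cells of muscle (SCs), the stem cells of this tissue, by RNA sequencing of 4 control and 4 exercise libraries. The animals were male C57B/6J mice of 10 weeks at the start. Control mice stayed sedentary, and exercise mice were run at 12 m/min on a treadmill for 30 min on 4 days of each week over 4 weeks, with no drug or injury in either group. Each library came from about 800 cells of the tibialis anterior, sorted as CD34+ and α7-integrin+ cells without CD31, CD45, CD11b and Sca1, and was made with a single-cell RNA library kit. The study describes the replicates of this experiment as mice, while the labels do not tie a library to an animal, so the p-values below measure the spread between libraries.

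A quiescent SC lies between the membrane of its myofibre and the basement membrane that wraps the fibre. Laminins are the scaffold of that sheet: each is a trimer of 1 α, 1 β and 1 γ chain, and the trimers assemble into a network on the cell surface through integrins and dystroglycan. Nidogens link the laminin network to collagen IV, and perlecan and agrin attach to it while carrying heparan sulphate chains that hold growth factors. In skeletal muscle the Lama2 chain is the main α chain of the mature fibre, its loss causes a congenital muscular dystrophy, and agrin from the motor nerve clusters acetylcholine receptors at the synapse. Lama4 and Lama5 are the α chains of the vessel wall, and Lamc1 encodes the γ1 chain that most laminins share.

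RNA for Lamc1 differed most between the groups of these 10 genes. It rose from a mean of 2.82 FPKM (the deposited unit, reads scaled to gene length and library size) in control libraries to 119 FPKM in exercise libraries. However, its call was lost in 8 of 22 alternative settings, among them those that average or drop libraries that resemble others. In exercise 4, Lamc1 lay below every control when scaled to the read total, though within counting error of control 3. Nid1 and Lamb1 did not pass the test. Agrn and Lama4 had lower levels in exercise libraries, but both entered the test through the control group alone, and Lama4 did not differ from the median of all genes in a fixed direction. The 5 other genes did not reach a mean of 1 FPKM over the 8 libraries. In control libraries Nid1 had the highest level of the 10 genes, and in exercise libraries Lamc1 had.

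For orientation, the 190 bases of genome just before the annotated start are given for 3 of the genes: Lamb1 and Nid1, whose RNA was highest in the same exercise libraries, and Agrn, whose RNA had no read in any exercise library. RefSeq promoter entries (GRCm38.p6) were held for 7 of the 10 genes, and Lamc1, Lama4 and Nid2 were not among them. Capitals mark the GC box GGGCGG and the CCAAT box CCAAT, each searched on both strands, so that CCGCCC and ATTGG also count. The sequences run 5′ to 3′ along the strand of the gene, at chr12:31265044-31265233 on the plus strand for Lamb1, chr13:13437361-13437550 on the plus strand for Nid1 and chr4:156197489-156197678 on the minus strand for Agrn.
Lamb1: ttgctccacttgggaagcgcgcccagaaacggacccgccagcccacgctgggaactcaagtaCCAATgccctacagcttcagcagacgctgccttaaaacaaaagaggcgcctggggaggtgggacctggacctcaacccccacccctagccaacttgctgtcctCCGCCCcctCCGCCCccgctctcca
Nid1: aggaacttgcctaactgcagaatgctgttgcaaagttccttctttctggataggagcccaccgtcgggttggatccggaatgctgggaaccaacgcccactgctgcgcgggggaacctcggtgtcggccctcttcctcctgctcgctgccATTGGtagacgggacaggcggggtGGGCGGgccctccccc
Agrn: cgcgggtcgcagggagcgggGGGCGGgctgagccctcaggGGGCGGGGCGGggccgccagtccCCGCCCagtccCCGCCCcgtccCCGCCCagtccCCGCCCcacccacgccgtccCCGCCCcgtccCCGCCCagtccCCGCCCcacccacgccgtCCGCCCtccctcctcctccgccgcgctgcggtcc
The Lamb1 window held 2 GC boxes and 1 CCAAT box with 63.7% G and C, and the Nid1 window 1 of each with 63.2%. The Agrn window held 11 GC boxes, 2 of them overlapping, and no CCAAT box, and it was 84.7% G and C against a median of 53.2% for all 32851 promoter windows of that length. A GC box stood in 30.7% of those windows and a CCAAT box in 28.4%. Those windows end at the RefSeq start, while the Lamb1 and Nid1 windows shown end 59 and 51 bases upstream of it. These matches describe letters and say nothing about which factor binds there.

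Several facts about the libraries bear on every value below. Control libraries held 2339966 to 3013354 reads on genes and exercise libraries 1011737 to 1200221, and mitochondrial transcripts took 2.09% to 15.3% of reads in the former and 7.85%, 7.56%, 50.2% and 68.7% in exercise 1 to 4. The FPKM values were whole multiples of 1 read per library, within a tolerance of 0.001, so reads are given beside them, and they had been divided by a median-of-ratios size factor and not by the read total. Exercise 1 and 2 were close to each other, with a chi-square per degree of freedom of 3.86 against 82.6 to 711 for the other pairs within a group. Control 4 kept a median share of 0.281 for the genes found in control 1 and not in control 3 and of 0.714 for the reverse, and exercise 3 kept 0.299 for genes of exercise 1 and 0.677 for genes of exercise 4. Whether all 8 libraries are separate samples was not tested. Calls are therefore also given after averaging exercise 1 and 2 (7 profiles) and after dropping control 4 and exercise 3 in addition (5 profiles). In bulk RNA such as this, fewer cells of a type and less RNA per cell cannot be told apart.

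The label of SCs was checked against 16 markers. Of these, 11 had a read in some library, and Pax7, Calcr, Itga7, Notch3 and Cdh15 had none in any of the 8, although Pax7 defines SCs and the Itga7 protein was used to sort them. The summed level of the 16 was 54.6 to 84.7 FPKM in control and 79.2 to 126 FPKM in exercise libraries, most of it from Des and Sdc4. Heyl added to it in exercise libraries alone, and Itgb1 mainly in control 2 to 4. Markers of fibro-adipogenic progenitors, the matrix-making cells of the muscle interstitium, were all present (12 of 12), at 3561 to 5848 FPKM in control and 4097 to 11240 FPKM in exercise libraries. The 8 tenocyte markers, all detected, summed to 493 to 1047 FPKM and to 243 to 1405 FPKM. The myofibre markers (13 of 14) summed to 36450 to 76350 FPKM and to 20180 to 60740 FPKM. Immune markers, 1 of 12 with a read, reached at most 1.39 FPKM in control libraries and 0 in exercise libraries, with Ptprc at 0. The gate was meant to leave out immune cells (CD45, CD11b), endothelial cells (CD31) and the fibro-adipogenic progenitors that carry Sca1. The sources of the laminin and nidogen RNA among these cell types were not tested.

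The laminin γ1 chain, encoded by Lamc1 (ENSMUSG00000026478, mm10 chr1:153218922-153332786, minus strand), had the highest mean of the 10 genes over the 8 libraries, through the exercise group. It stood at 3.95, 3.55, 1.39 and 2.40 FPKM in control 1 to 4, from 75, 90, 45 and 79 reads. In exercise 1 to 4 it stood at 188, 184, 96.7 and 6.71 FPKM, from 2605, 2435, 887 and 16 reads. All 4 exercise libraries lay above all 4 controls, but exercise 4 was far closer to the controls than to the other exercise libraries. The means were 2.82 ± 1.16 FPKM (SD, n = 4) and 119 ± 86.0 FPKM (SD, n = 4), a ratio of 42.2, and the exact two-sided permutation test over the 70 assignments of libraries gave p = 0.0286, the smallest it can give. On log2(FPKM + 1), the scale of all tests here, which understates the change of low genes, the difference was 4.28 with an SE of 1.06 and a limma adjusted p of 0.0166 over 4328 genes.

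How far the exercise 4 value lies from the controls depended on the scaling of the library. In RPM, which sets reads against the read total on genes and not the size factor, Lamc1 was at 32.1, 33.8, 14.9 and 28.3 in control 1 to 4 and at 2461, 2407, 739 and 13.8 in exercise 1 to 4. On this scale exercise 4 fell below all 4 controls, with an exact binomial 95% interval of 7.91 to 22.5 RPM. This interval includes the value of control 3, and the separation of exercise 4 in FPKM rests on the same 16 reads. The interval covers counting error alone, because reads of amplified RNA can be copies of 1 molecule. As RPM of the reads outside the mitochondrial genome, the values were 32.7, 38.0, 17.6 and 32.1 in controls and 2671, 2604, 1485 and 44.2 in exercise libraries, and the groups were again separate. The 887 reads of Lamc1 in exercise 3 lie near the 894 that the shares kept from exercise 1 and exercise 4 would give.

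**Figure D1:**
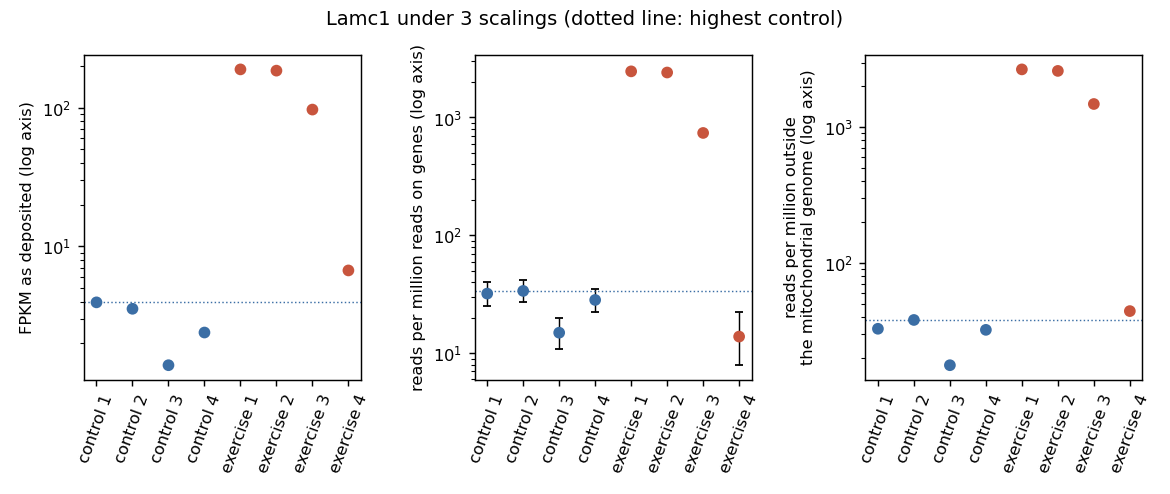
Lamc1 in each of the 8 libraries (x axis). The log axes are FPKM, RPM of the reads on genes and RPM of the reads outside the mitochondrial genome. Blue points are control and red points exercise libraries, and the dotted line is the highest control. Bars in the middle panel are exact binomial 95% intervals, which elsewhere were not drawn. Exercise 1 to 3 lie above the line on all 3 scales, and exercise 4 lies above it in FPKM (6.71) and outside the mitochondrial genome (44.2) but below it in RPM of the reads on genes (13.8).

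The adjusted p of Lamc1 lay close to the threshold. Over the 7 profiles the log2 difference was 3.82 with a limma adjusted p of 0.0564, and over the 5 profiles it was 3.33 with an adjusted p of 0.471. Leaving out 1 library at a time gave differences from 3.82 to 5.36, and 4 of these 8 fits kept an adjusted p under 0.05: those without control 1, control 2, control 3 or exercise 4. The last of them gave 5.36 and an adjusted p of 0.000344, so the difference was larger without exercise 4 than with it.

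The β1 chain, encoded by Lamb1 (ENSMUSG00000002900, chr12:31265234-31329644, plus strand), is a common partner of γ1 in laminin trimers. Its levels were 4.92, 1.35, 1.32 and 2.33 FPKM in control 1 to 4, from 112, 41, 51 and 92 reads, and 11.6, 14.0, 5.55 and 0.350 FPKM in exercise 1 to 4, from 193, 221, 61 and 1 reads. Exercise 1 to 3 were above every control and exercise 4 was below every control, so the groups overlapped. The means of 2.48 ± 1.70 and 7.88 ± 6.15 FPKM (SD, n = 4 each) did not differ in the exact two-sided permutation test (p = 0.257), and the log2 difference was 0.99 with an SE of 0.87 and a limma adjusted p of 0.355. Without 1 library the log2 difference of Lamb1 ran from 0.58 without exercise 2 to 1.74 without exercise 4, where the limma adjusted p was 0.0512. It was under 0.05 with quantile normalization (log2 difference 2.59) and with array quality weights (2.41).

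Lamb2 (ENSMUSG00000052911, chr9:108479736-108490530, plus strand) encodes the β2 chain, which is concentrated at the neuromuscular synapse. It was at 0.502, 0.966, 0.548 and 0.619 FPKM in control libraries and at 0.590, 0.103, 0.890 and 0 FPKM in exercise libraries, from 53 and 13 reads in all. The groups overlapped, with an exact two-sided p of 0.286. In exercise 4, with no read, 3 reads would stand for 1.71 FPKM, above every control, so a lower level could not be shown in that library.

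Of the α chains, Lama4 (ENSMUSG00000019846, chr10:38965515-39110188, plus strand) was the one above the filter of a mean of 1 FPKM over the 8 libraries, and it passed through the control group alone. It stood at 7.33, 2.52, 1.27 and 2.50 FPKM in control 1 to 4, from 203, 93, 60 and 120 reads. In exercise 1 to 4 it stood at 0.0991, 0.364, 0.523 and 0 FPKM, from 2, 7, 7 and 0 reads. The groups did not overlap, and control 1 exceeded the sum of the 3 other controls. With each exercise library below 3 reads set to 3 reads, the control mean of 3.40 ± 2.68 FPKM (SD, n = 4) was 7.18-fold higher than that of the exercise libraries. Without control 1 the control mean was 4.42-fold higher. Exercise 2 and 3 entered with their 7 reads each, so these ratios are not lower bounds. Lama4 fell by 1.67 on the log2 scale, with an SE of 0.56, a limma adjusted p of 0.0430 and a p of 0.0286 in the exact two-sided permutation test. Of the 8 fits without a library, the one without control 1 kept an adjusted p under 0.05 (0.0126), the others gave up to 0.109, and over the 7 profiles it was 0.101. Quantile normalization gave a difference of 0.048 with an adjusted p of 0.952.

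Lama2 (ENSMUSG00000019899, chr10:26980036-27619758, minus strand), the α2 chain of the mature muscle fibre, did not pass the filter. Its levels were 0.133, 0.0999, 1.51 and 0.676 FPKM in control libraries, from 5, 5, 96 and 44 reads, and 0.732, 0.384, 0.386 and 0.212 FPKM in exercise libraries, from 20, 10, 7 and 1 reads. Control 3 was the highest library and control 2 the lowest, so the exercise group lay within the control range, with an exact two-sided p of 0.829. The gene overlaps Gm36962 on the same strand, which held 471 reads in exercise and 0 in control libraries, and how reads were shared between them is not given in the sources used here. Lama5 (ENSMUSG00000015647, chr2:180176373-180225859, minus strand) had no read in any library, which allows up to 0.0661 to 0.115 FPKM in control and 0.158 to 0.914 FPKM in exercise libraries at 3 reads each.

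Nid1 (ENSMUSG00000005397, chr13:13437551-13512269, plus strand), the nidogen that bridges laminin γ1 and collagen IV, varied least among controls, relative to its mean, of the genes with reads. It was at 16.4, 16.3, 12.6 and 12.3 FPKM in control 1 to 4, from 261, 347, 342 and 339 reads. In exercise 1 to 4 it was at 26.4, 22.6, 11.3 and 2.50 FPKM, from 307, 250, 87 and 5 reads. Exercise 1 and 2 lay above and exercise 3 and 4 below all controls, so the spread was wider among exercise libraries and the means nearly equal, at 14.4 ± 2.27 and 15.7 ± 10.9 FPKM (SD, n = 4 each). The log2 difference of -0.24 had an SE of 0.79, a limma adjusted p of 0.812 and a p of 0.857 in the exact two-sided permutation test. It was 0.39 without exercise 4, 0.95 after quantile normalization and 0.82 with array quality weights, so its sign is not fixed by these data.

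Nid2 (ENSMUSG00000021806, chr14:19751265-19811787, plus strand), the other nidogen, was at 3.88, 0, 0 and 0.922 FPKM in control 1 to 4, from 46, 0, 0 and 19 reads. It had no read in the 4 exercise libraries, where 3 reads would stand for 0.347 to 2.01 FPKM. The reads of control 4 lie near the 15.4 that the share kept from control 1 would give, so 1 control carried most of this gene. The groups overlapped at 0, with an exact two-sided p of 0.429. 2700060E02Rik overlaps Nid2 on the opposite strand and held 923 control and 28 exercise reads, and without strand the reads of such a pair cannot be told apart.

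Agrn (ENSMUSG00000041936, chr4:156165290-156197488, minus strand), the proteoglycan that organises the neuromuscular synapse and also binds laminin and dystroglycan, had 857 reads in control libraries and none in exercise libraries. It was at 0.0470, 13.5, 8.03 and 4.92 FPKM in control 1 to 4, from 1, 383, 291 and 182 reads. Control 1 with its single read was at the level of the exercise libraries, whose 3 reads would stand for 0.193 to 1.12 FPKM, and the other 3 controls lay well above. The control mean of 6.62 ± 5.63 FPKM (SD, n = 4) was at least 14.6-fold higher than that of the exercise libraries at 3 reads each, and at least 9.58-fold higher without control 2. Agrn fell by 2.42 on the log2 scale, with an SE of 0.79, a limma adjusted p of 0.0415 and a p of 0.0286 in the exact two-sided permutation test. That exact p rests on the 1 read of control 1. Agrn also passed the filter through the control group alone, so that it could only be lower in exercise libraries. Over the 7 profiles the adjusted p of Agrn was 0.0921. The adjusted p was over 0.05 in 7 of the 8 fits without a library, up to 0.103 without control 4, and was 0.000441 without control 1.

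Hspg2 (ENSMUSG00000028763, chr4:137468769-137570630, plus strand), which encodes perlecan, the large proteoglycan of nearly all basement membranes, had 18 reads in control and 8 in exercise libraries. It lay between 0.0609 and 0.137 FPKM in controls and between 0 and 0.175 FPKM in exercise libraries, with an exact two-sided p of 0.943. A fall was not detectable at this depth, since 3 reads would stand for 0.125 to 0.728 FPKM in an exercise library.

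**Figure D2:**
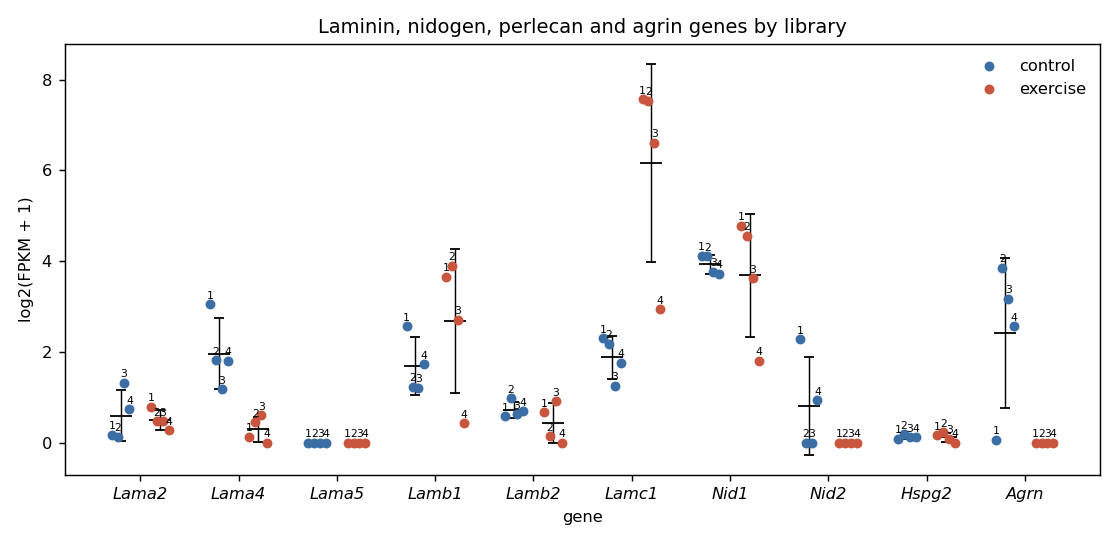
Level of each of the 10 genes as log2(FPKM + 1) (y axis) in the 4 control and 4 exercise libraries; points are single libraries with their numbers, and bars are the group means ± SD (n = 4). Lamc1 lies above all other genes in the exercise group, Agrn and Lama4 lie near 0 in the exercise group, and Lama5 is at 0 in every library.

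The order of the mean levels in control libraries was Nid1, Agrn, Lama4, Lamc1, Lamb1, Nid2, Lamb2, Lama2, Hspg2 and Lama5. Nid1 was the highest of the 10 in each of the 4 controls, although the Agrn level of control 2 (13.5 FPKM) exceeded the Nid1 level of control 3 and control 4. From Nid1 down to Hspg2 each gene overlapped the next in range, so neighbours in this order did not differ beyond their spread. In exercise libraries the order was Lamc1, Nid1, Lamb1, Lama2, Lamb2, Lama4 and Hspg2, with Nid2, Agrn and Lama5 at 0. Lamc1 was the highest in each of the 4, and Nid1 came next in each, but neighbouring genes again overlapped in range over the 4 libraries.

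The make-up of the group of genes differed more evenly between the libraries than the levels did. The 10 genes summed to 37.2, 38.4, 26.8 and 26.7 FPKM in control 1 to 4 and to 228, 222, 115 and 9.77 FPKM in exercise 1 to 4, so exercise 4 was below and the other exercise libraries above all controls. Nid1 made up 42.5% to 47.1% of that sum in controls and 11.6%, 10.2%, 9.79% and 25.6% in exercise 1 to 4. Lamc1 made up 5.20% to 10.6% in controls and 82.6%, 83.1%, 83.8% and 68.7% in exercise 1 to 4. Shares within a library do not depend on its size factor, and in this respect exercise 4, with 23 reads on the 10 genes, stood with the other exercise libraries.

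The stoichiometry of the laminin chains can be read in the same way. The ratio of γ1 to the 2 β chains together was 0.729 to 1.53 in controls and 13.1 to 19.2 in exercise libraries. The ratio of γ1 to the 3 α chains together was 0.501 to 1.36 in controls and 31.6 to 247 in exercise libraries, and that of γ1 to Nid1 was 0.110 to 0.241 and 2.69 to 8.56. In these 3 ratios the ranges of the groups did not overlap, but in exercise 4 the β and the α chains rested on 1 read each. The ratio of the β to the α chains was 0.671 to 0.929 in controls and 7.08 to 18.8 in exercise 1 to 3, and in exercise 4 it is set by the lengths of the genes alone. These are ratios of RNA, and the assembled trimers were not measured.

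**Figure D3:**
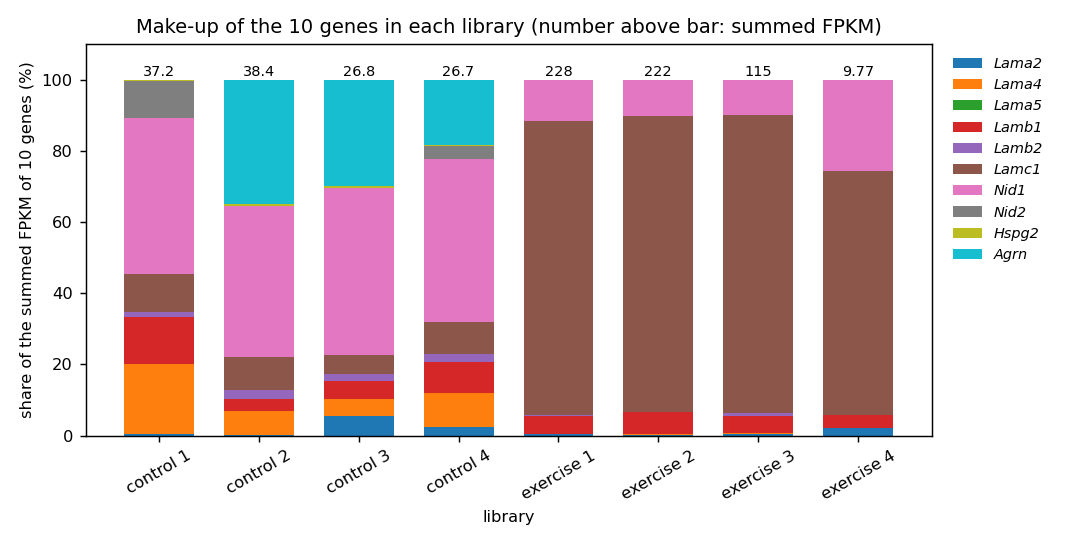
Share of each gene in the summed FPKM of the 10 genes (y axis, %) for each library (x axis), as stacked bars with the summed FPKM above each. Nid1 is the largest segment in the 4 controls (42.5% to 47.1%) and Lamc1 in the 4 exercise libraries (68.7% to 83.8%).

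Controls held reads of 9, 8, 8 and 9 of the 10 genes and exercise libraries of 7, 7, 7 and 4. Drawn to an equal depth of 1011737 reads, the expected numbers were 8.03, 7.85, 7.87 and 8.89 in controls and 7.0, 7.0, 6.84 and 3.75 in exercise libraries. The depth was matched on all reads on genes, mitochondrial reads included, so the depth on other genes was not equal. Over all genes, reads fell on 5169 to 7307 genes in control and on 2348 to 3289 in exercise libraries. Reads of these genes were 300 to 369 RPM in controls and 2963, 2894, 880 and 19.9 RPM in exercise 1 to 4.

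Across all genes, 35.6% of the 4328 tested had a limma adjusted p under 0.05, with 8.78% higher and 26.8% lower in exercise libraries. An unadjusted p under 0.05 was found for 2145 of the 4328. Of the 10 genes described, 5 passed the filter, 1 rose and 2 fell. Non-overlapping groups were found for 31.6% of the genes tested, 7.62% higher and 24.0% lower, and for 3 of the 5 genes here that passed the filter, 1 higher (Lamc1) and 2 lower (Agrn and Lama4), where the separation of Agrn rests on the 1 read of control 1. Calls in the lower direction were thus common in these libraries, and Agrn and Lama4, which passed the filter through the control group alone, had to differ. The split of calls over all genes was 380 higher and 1161 lower, and it was 566 and 375 after quantile normalization and 568 and 843 without exercise 4.

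The median log2 difference over all genes tested was -1.42, so a gene with no change relative to the rest would lie there and not at 0. Relative to that median, Lamc1 differed by 5.70, Lamb1 by 2.41, Nid1 by 1.17, Lama4 by -0.25 and Agrn by -1.0. Over all alternative settings, each set against its own median, Lamc1 ranged from 4.60 to 7.25, Lamb1 from 1.31 to 3.60, Nid1 from 0.08 to 2.27 and Agrn from -3.77 to -0.46. Lama4 ranged from -1.72 to 0.49, so it had no direction of its own relative to the other genes.

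**Figure D4:**
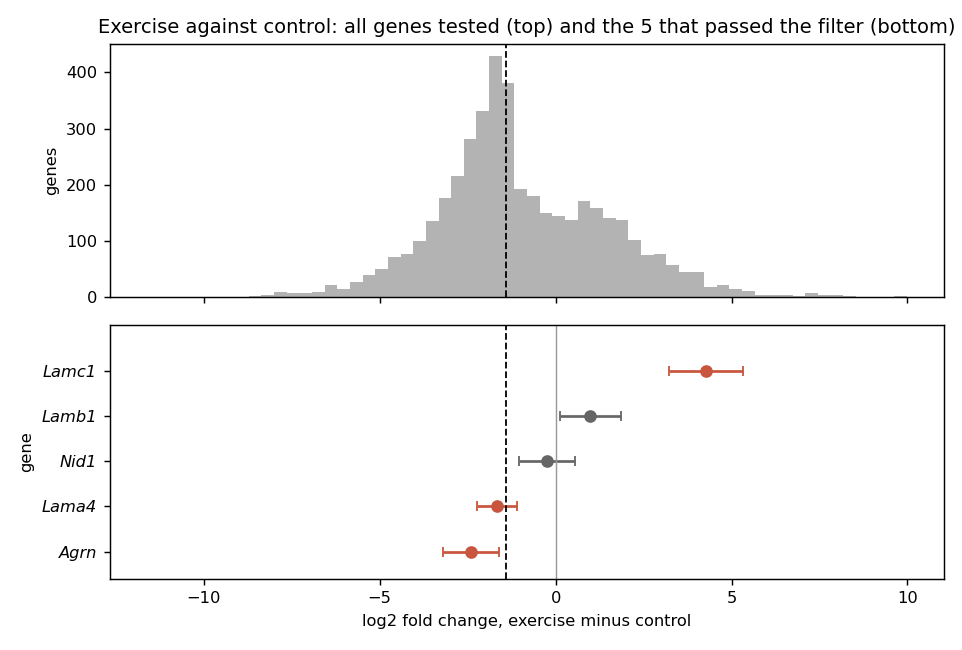
Top, histogram of the log2 difference (exercise minus control) of the 4328 genes tested; bottom, the 5 of the 10 genes that passed the filter, with bars of 1 SE and red for an adjusted p under 0.05. The dashed line is the median of all genes (-1.42): Lamc1 (4.28) lies far to its right, and Lama4 (-1.67) close to it.

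Markers of other cell types moved with some of these genes. Of 12 endothelial markers, 4 had a read and 8, among them Pecam1 and Cdh5, were at 0 in all libraries. They summed to 0.0925 to 2994 FPKM in controls and 4.42 to 26.2 FPKM in exercise libraries. Kdr, the endothelial receptor for vascular growth factor, was at 0, 2994, 1669 and 1076 FPKM in control 1 to 4, in the same order as Agrn, and at most 0.530 FPKM in exercise libraries. Tek, another endothelial receptor, went the other way, with at most 0.0925 FPKM in controls and 24.0, 25.8, 14.7 and 4.42 FPKM in exercise 1 to 4. Of 10 pericyte and smooth muscle markers, 3 had a read, and they summed to 2.88 to 46.1 and 5.72 to 89.3 FPKM, while Rgs5, Cspg4 and Tagln were at 0. Myh11, the smooth muscle myosin, was at 0 in controls and at 70.1, 71.5, 35.6 and 3.14 FPKM in exercise 1 to 4, in a pattern like that of Lamc1. Acta2, the smooth muscle actin of the same list, was higher in controls on average, at 19.8 ± 22.7 FPKM against 1.08 ± 1.06 FPKM (SD, n = 4 each). Scx, the tendon transcription factor, was at most 0.442 FPKM in controls and at 101, 102, 49.2 and 3.06 FPKM in exercise 1 to 4. Of the other tenocyte markers, Kera was at 5.28 to 27.9 FPKM in controls and had no read in exercise libraries, and Col12a1 was at 0.478 to 1.28 FPKM in controls and at most 0.0823 FPKM in exercise libraries. Of the 12 fibro-adipogenic markers 11 were tested, 3 rose (Clec3b, Lum and Gsn) and 1 fell (Col1a2) by limma. Over all genes tested, 35.6% were called, 8.78% higher and 26.8% lower. Clec3b was at 27.7 to 44.1 FPKM in controls and at 1193, 1203, 631 and 52.5 FPKM in exercise 1 to 4, and Col1a2 was at 388 to 972 FPKM and at 157, 153, 80.8 and 20.7 FPKM. Heyl, a Notch target listed with the SC markers, had no read in controls and was at 28.4, 27.2, 11.8 and 0.679 FPKM in exercise 1 to 4. Of 6 SC markers tested, Heyl was the 1 called, and 3 were lower by sign. Vcam1 and Fgfr4, of the same list, had reads in controls alone. Schwann cell markers, 4 of 9 with a read and Sox10 at 0, summed to 1.55 to 22.1 and 1.86 to 9.10 FPKM. Of 14 myofibre markers 12 were tested, none was called higher and 3 were called lower (Myh1, Myl1 and Mb). By sign 11 of the 12 were lower, beside 2954 of all 4328 genes tested. The part of these cell types in the differences of Lamc1 and Agrn was not tested.

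The tested genes nearest to Lamc1 in profile, by the mean absolute difference of log2(FPKM + 1) after centring each gene over the 8 libraries, were Sin3b (0.253), Rrnad1 (0.268) and Prkra (0.273). Sin3b was at 1.42, 1.47, 0.697 and 0.990 FPKM in controls and at 138, 134, 71.3 and 7.08 FPKM in exercise 1 to 4. Prkra had no read in controls and stood at 57.5, 58.7, 24.0 and 1.71 FPKM in exercise 1 to 4. These genes were chosen for that likeness, so their values are a description.

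The other laminin chains, those of epithelia and nerve, gave little signal. Lama1 and Lamb3 had no read in any library, and Ntn4, a laminin-related netrin, was highest at 2.33 FPKM in control 1 and had no read in exercise libraries. None of the 6 genes passed the filter. The counts in the lists that follow stand beside 35.6% called over all genes tested (8.78% higher, 26.8% lower) and beside 2145 of 4328 with an unadjusted p under 0.05.

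Of 20 genes for collagen IV and the proteins that link the sheet to the matrix around it, 11 were tested, none rose and 2 fell by limma (1 and 3 at an unadjusted p under 0.05), with a median log2 difference of -0.65. Col18a1, the precursor of endostatin and itself a heparan sulphate proteoglycan of basement membranes, was at 2.05, 146, 77.1 and 55.0 FPKM in control 1 to 4 and at 0.341, 0.357, 0.385 and 0 FPKM in exercise 1 to 4. As with Agrn, control 1 was the lowest control, and the groups did not overlap. Like Agrn, it passed the filter through the control group alone. Col18a1 fell by 4.89 on the log2 scale (SE 1.13, limma adjusted p = 0.0128). Fibronectin (Fn1) was at 84.4 ± 58.1 FPKM in control and 10.8 ± 2.29 FPKM in exercise libraries (SD, n = 4 each) and fell by 2.46 (SE 0.82, limma adjusted p = 0.0436). Sparc, which binds collagen IV, averaged 707 and 1279 FPKM, Smoc2 676 and 392 FPKM and Col15a1 76.8 and 44.5 FPKM, and none of the 3 passed the test. Col4a1, a main chain of collagen IV, averaged 13.6 and 7.60 FPKM with a limma adjusted p of 0.432.

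Of 23 genes for laminin and perlecan receptors, 9 were tested, 1 rose and none fell by limma (2 and 0 at an unadjusted p under 0.05), with a median of -1.22. The receptor partners best known in SCs were poorly covered: Itga7 had no read, and Itgb1, the β1 integrin it pairs with, was at 0, 19.3, 11.1 and 7.26 FPKM in controls and 2.35, 1.23, 0.221 and 0 FPKM in exercise libraries, with a limma adjusted p of 0.129. Dystroglycan (Dag1), which binds the α2 chain, perlecan and agrin, averaged 17.4 ± 20.2 and 10.6 ± 16.5 FPKM (SD, n = 4 each) and did not pass the test. The one receptor gene with an adjusted p under 0.05 was Gpc4, a glypican, at 0.329, 0, 0 and 0 FPKM in control and 14.0, 10.6, 8.85 and 0 FPKM in exercise libraries, with a log2 difference of 2.58 (SE 0.86, limma adjusted p = 0.0436). Its groups overlapped, since exercise 4 had no read, and it passed the filter through the exercise group alone, so that it could only be higher there. Syndecans, which carry heparan sulphate at the cell surface, did not pass the test: Sdc4 averaged 17.9 and 53.6 FPKM (limma adjusted p = 0.101) and Sdc1 298 and 29.9 FPKM (limma adjusted p = 0.374).

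Genes that modify or export these proteins were covered in part. Among genes for the glycosylation of dystroglycan, which makes it bind laminin, B3galnt2 was highest at 25.6 FPKM in control 1, had no read in exercise libraries and did not pass the test (limma adjusted p = 0.0858). Of 16 genes for heparan sulphate synthesis, 4 were tested, none rose and 2 fell by limma (0 and 3 at an unadjusted p under 0.05), with a median of -2.66. These were B3gat3, which adds the last sugar of the linker, and Hs6st1, a sulphotransferase, with log2 differences of -3.18 (limma adjusted p = 0.0359) and -3.58 (limma adjusted p = 0.0335). Both had no read in exercise libraries and were each at 0 in 1 control, so their groups overlapped, and they passed the filter through the controls alone and could only be lower in exercise libraries. Of 16 genes for matrix folding and secretion, 11 were tested, 2 rose and 1 fell by limma (2 and 3 at an unadjusted p under 0.05), with a median of -0.61.

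Sec23a, a coat subunit of the vesicles that carry large matrix proteins out of the endoplasmic reticulum, was at 1.35, 0, 0.953 and 0.778 FPKM in controls and 33.0, 35.1, 21.2 and 5.02 FPKM in exercise 1 to 4. It passed the filter through the exercise group alone. Its groups did not overlap, and its log2 difference was 3.57 (SE 0.76, limma adjusted p = 0.0098). Serpinh1, the collagen chaperone, averaged 9.16 ± 4.76 and 75.0 ± 50.1 FPKM (SD, n = 4 each), with a log2 difference of 2.59 (limma adjusted p = 0.0457), and exercise 4 lay within the control range. Pdia3, a disulphide isomerase, fell by 1.91 on the log2 scale (limma adjusted p = 0.0227) from a control mean of 3.29 FPKM, having passed the filter through the control group alone. Among the 49 genes for other laminin chains, collagen IV and linkers and receptors, the number of limma calls was 3 over the 8 libraries, 1 over the 7 profiles and 0 over the 5 profiles, where 1 had an unadjusted p under 0.05. Of the 8 called genes of all lists named here, Col18a1 (limma adjusted p = 0.0389) and Sec23a (limma adjusted p = 0.0384) kept an adjusted p under 0.05 over the 7 profiles, the other 6 had up to 0.115, and over the 5 profiles the adjusted p of all 8 was 0.432 to 0.494.

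**Figure D5:**
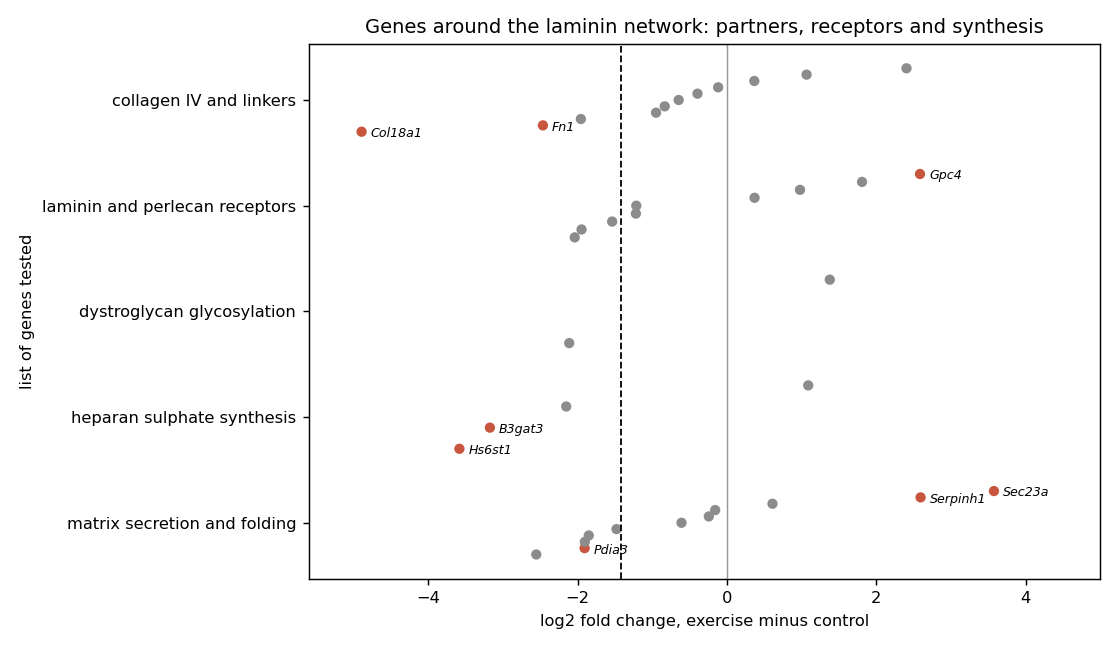
Log2 difference (exercise minus control, x axis) of each tested gene in 5 lists around the laminin network (y axis); red points have an adjusted p under 0.05 and are named. The dashed line is the median of all genes tested (-1.42). Col18a1 lies farthest to the left (-4.89) and Sec23a farthest to the right (3.57).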

How the data were processed

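Reads were obtained from 8 libraries of sorted SCs as pairs of 150 bases. Per the labels and the methods, alignment by the authors used Bowtie 0.12.9 and mm10, and they estimated FPKM with Cufflinks 2.1.1 and counted reads with HTSeq. The deposited table gives FPKM per gene and library; 1 read was recovered as the common step of FPKM multiplied by gene length. Rows that share a symbol were summed (101 fewer rows). Of the gene identifiers, 99.6% are in GENCODE M21 (GRCm38) and 95.2% of these have the same position, as have all 10 genes described.

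Limma 3.58.1 (R 4.3.3; eBayes with the trend option, Benjamini-Hochberg over 4328 genes) was run on log2(FPKM + 1) of genes averaging 1 FPKM or more, and was tested on simulated data. Single genes were compared by exact two-sided permutation over 70 assignments (35 with a library left out). A count of 0 was taken to allow 3 reads. Python 3.11.15, numpy 2.4.6, pandas 2.3.3 and scipy 1.17.1 were used.

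The 10 genes, the lists and the tests were chosen with earlier results of these data known. In each list the genes with an adjusted p under 0.05 and up to 3 more with the highest mean are named; Itgb1, Col4a1, the markers and the genes without reads were named after their values were seen. Some genes of the lists are not reported here. Alternatives were a pseudocount of 0.1, no filter, a filter of 1 FPKM in 4 libraries, quantile normalization, a constant sum, the read total, no trend, a block by replicate number, array quality weights, voom on recovered reads, the highest row per symbol and leaving out each library. Averaging exercise 1 and 2, leaving out control 4 and exercise 3 as well, and scaling to reads outside the mitochondrial genome were chosen after seeing the data.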

Additional observations from a re-analysis of the deposited data

How the results depend on the processing

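Of the 10 genes, 3 had an adjusted p under 0.05. That count was 1 without the filter and 1 with the replicate block, 0 to 3 with a library left out (3 without control 1), and 0 by limma when exercise 1 and 2 were averaged (7 profiles; 3 at an unadjusted p under 0.05) and when control 4 and exercise 3 were dropped too (5 profiles; 0 unadjusted). It was 0 without control 4, exercise 1, exercise 2 or exercise 3, each with 3 at an unadjusted p under 0.05. Over all genes the count of 1541 became 840 without the filter, 941 with quantile normalization, 2978 with array quality weights, 527 to 1899 with a library left out, 596 over the 7 profiles and 0 by limma over the 5 profiles (469 at an unadjusted p under 0.05). The 3 calls among 49 other basement membrane and receptor genes became 1, 6, 15, 1 to 7, 1 and 0 in the same order, and 1 with the replicate block. Same-numbered libraries did not deviate together (correlations -0.017 to 0.039), so the numbers were not taken as pairs; the block left 1059 calls over all genes. Lamc1 had an adjusted p under 0.05 in 14 of 22 alternatives and was above it also with a constant sum (3.91, 0.0631) and voom (4.23, 0.0845). Differences that changed sign were those of Lama4 with quantile normalization (0.048), Nid1 with quantile normalization (0.95), array quality weights (0.82) and without exercise 4 (0.39, from -0.60 without exercise 1), Lama2 without control 3 (0.15, from -0.25), and Hspg2 without control 2, exercise 3 or exercise 4 (0.013, 0.0056 and 0.035, from -0.043). The cause was not tested. With 1 FPKM required in 4 libraries Agrn had no value. The expected number of genes detected in control 1 at equal depth was 8.03 against 9. With 1011737 to 3013354 reads per library, Lama5 and Hspg2 lay near or below the limit of detection.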
